A study of Homo sapiens with 36 samples.

Results

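The mRNAs described here encode 41 nuclear-encoded proteins of respiratory complexes II to V, chosen by symbol from the 26485 gene rows that each of the 36 libraries holds. They comprise 4 subunits of complex II, 9 of complex III, cytochrome c, 11 of complex IV, 15 of complex V (under their older ATP5 symbols) and the ATPase inhibitor ATPIF1. All 41 were found, and all 41 passed the filter on low counts in every comparison. The libraries come from MDA-MB-231, an established human line of triple-negative breast cancer whose source the labels give as a xenograft. Of its 4 derivatives, UAU cells overexpressed the isoleucine tRNA with anticodon UAU (written TAT in some titles) and carried CRISPR interference against eGFP. Isoswitch cells combined UAU overexpression with CRISPR interference against the isoleucine tRNA with anticodon GAU, and GAUi cells combined that interference with a control overexpression construct. Control cells had eGFP interference and the control construct. So all 4 derivatives carried a CRISPR interference construct and an overexpression construct. The labels do not name their promoters, nor say whether a derivative was 1 clone or a pool. Every culture received 100 ug/mL cycloheximide, which stalls ribosomes on mRNA, for 5 min before freezing. Each derivative gave total RNA, a low fraction of the gradient, pooled from monosomes through the lightest polysomes, and a high fraction, pooled from heavier polysomes, in 3 replicates lettered A, B and C. Whether the replicates are separate cultures is not stated, and p-values therefore reflect the spread of these libraries alone, which may be technical.

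Complexes II, III and IV pass electrons from succinate through ubiquinol and cytochrome c to oxygen, and complex V uses the proton gradient that III and IV build to make ATP. Complexes III, IV and V also hold subunits made inside the mitochondrion, whose genes were not analysed here. The nuclear subunits are translated on cytosolic ribosomes and imported, so each mRNA's place in a polysome gradient reflects how many ribosomes it carries. That number depends, among other things, on the length of the coding sequence and on how often translation starts. It does not by itself give the amount of protein made.

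Library totals ran from 5192464 to 8974001 counts, and single members had between 36 and 25846 counts in a library. Levels are in CPM, counts of 3′ ends scaled to a common library size with TMM factors, given in the order A, B, C, and they are shares of a library, not absolute amounts. In bulk RNA, fewer cells holding an mRNA and less of it per cell cannot be told apart. Summed levels of 10 markers of MDA-MB-231 cells were 2919 to 7324 CPM across the libraries, with SPARC at 0 to 0.957 CPM. Summed levels of fibroblast markers (6 genes), leukocyte markers (5 genes) and endothelial markers (5 genes) reached at most 5.15, 1.63 and 8.31 CPM, and CD3E, CDH5 and CLDN5 were at 0 in all libraries. Some rows share sequence with a member. The readthrough row SLMO2-ATP5E held 88.0% to 96.9% of the ATP5E count and ATP5J2-PTCD1 held 79.0% to 144% of the ATP5J2 count. The copy ATP5EP2 held 5.64% to 14.6% of the ATP5E count, SDHAP1 0% to 14.2% of the SDHA count, ATP5L2 at most 1.53% of the ATP5L count and UQCRHL at most 0.904% of the UQCRH count. How reads shared between rows were counted, and whether strand was used, is not given in the sources used here, so values of these members are uncertain, as are those of COX4I1, UQCRQ and ATP5B, which overlap or adjoin EMC8, GDF9 and BAZ2A, and those of ATP5H and ATP5J, which overlap KCTD2 and GABPA.

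In control cells the heavy fraction of the gradient was set against the light one, which asks where each mRNA lay before any tRNA was changed. SDHC, CYC1, ATP5O and ATP5B were the members most shifted to the high fraction, and UQCRH, UQCR11, ATP5I and ATP5E those most shifted to the low fraction. Of the 41 members, 23 were higher and 11 lower in the high fraction by the edgeR quasi-likelihood test at an adjusted p under 0.05, in a comparison that called 66% of all genes (32.8% higher and 33.2% lower). The median log2 fold change of the members was 0.52, against -0.01 over all 12266 genes tested. Complex V had 10 of 15 higher and 3 lower (median 0.98), complex III had 5 of 9 higher and 4 lower (median 0.30), complex IV had 3 of 11 higher and 4 lower (median 0.06), and complex II had 3 of 4 higher and 0 lower (median 0.97).

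SDHC, a membrane anchor of complex II (chromosome 1, 161314381 to 161363206), had 114, 135 and 114 CPM in the high fraction and 43.0, 24.6 and 39.3 CPM in the low fraction, a log2 fold change of 1.74 ± 0.15 (SE; edgeR adjusted p = 9.23e-08). CYC1, cytochrome c1 of complex III (chromosome 8, 144095076 to 144097525), had 237, 337 and 324 CPM in the high and 89.1, 97.2 and 101 CPM in the low fraction, a log2 fold change of 1.62 ± 0.12 (SE; edgeR adjusted p = 1.07e-08). No low-fraction library reached a high-fraction one for either gene. ATP5O, the stalk subunit that confers oligomycin sensitivity (chromosome 21, 33903453 to 33915804), had 421, 417 and 454 CPM in the high and 135, 161 and 135 CPM in the low fraction, a log2 fold change of 1.56 ± 0.09 (SE; edgeR adjusted p = 7.15e-10). ATP5B, the catalytic beta subunit (chromosome 12, 56638175 to 56645984), had 349, 388 and 351 CPM in the high and 142, 103 and 130.3 CPM in the low fraction, a log2 fold change of 1.51 ± 0.11 (SE; edgeR adjusted p = 6.63e-09). All high-fraction libraries of both lay far above all low-fraction ones. Cytochrome c itself, CYCS, the mobile carrier between complexes III and IV (chromosome 7, 25118656 to 25125260), also lay in the high fraction, with a log2 fold change of 1.36 ± 0.10 (SE; edgeR adjusted p = 1.14e-08).

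Of the members lower in the high fraction, UQCRH, the hinge protein that helps bind cytochrome c (chromosome 1, 46303698 to 46316776), had 288, 256 and 303 CPM in the high and 1014, 968 and 1042 CPM in the low fraction, a log2 fold change of -1.86 ± 0.08 (SE; edgeR adjusted p = 7.64e-11). UQCR11, a small complex III subunit (chromosome 19, 1597169 to 1605462), had 229, 235 and 249 CPM in the high and 832, 806 and 834 CPM in the low fraction, a log2 fold change of -1.82 ± 0.08 (SE; edgeR adjusted p = 4.09e-11). Every low-fraction library of both genes stood far above every high-fraction one. ATP5I, the e subunit of the membrane part of complex V (chromosome 4, 672436 to 674276), had 129, 118 and 136 CPM in the high and 354, 569.8 and 378 CPM in the low fraction, a log2 fold change of -1.79 ± 0.14 (SE; edgeR adjusted p = 3.3e-08). ATP5E, the epsilon subunit of the rotor (chromosome 20, 59025475 to 59032335), had 801, 798 and 868 CPM in the high and 1917, 2372 and 2088 CPM in the low fraction, a log2 fold change of -1.39 ± 0.09 (SE; edgeR adjusted p = 2.61e-09). Low-fraction library B stood apart for several members: it was the highest of its group for ATP5I, ATP5E and ATP5L and the lowest for SDHB, SDHC and SDHD. Without any 1 of the control libraries the members called numbered 33 to 36.

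**Figure D1:**
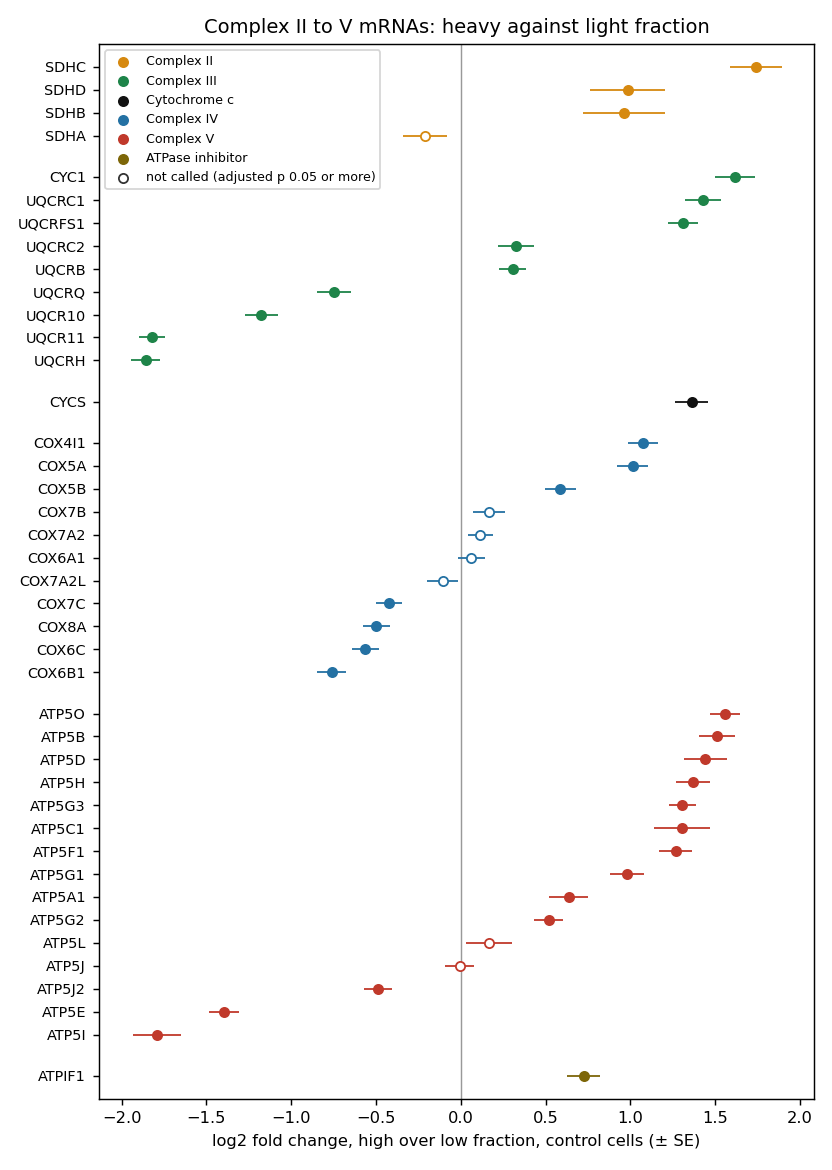
Log2 fold change (± SE) of the 41 members between the high and the low fraction of control cells, by complex, with filled points for members called at an adjusted p under 0.05. SDHC lies farthest to the right at 1.74 and UQCRH farthest to the left at -1.86, and complex III is split, with 5 members higher and 4 lower.

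Overexpression of the UAU tRNA alone was compared with control in the high fraction. Most subunits of complexes IV and V rose in that fraction, while ATP5A1, ATP5B, ATP5F1, UQCRC1, UQCRC2 and SDHA fell. The 10 members of complex V that rose were ATP5D and ATP5E of the rotor, ATP5G1, ATP5G2 and ATP5G3, which encode the c subunit of its ring, and ATP5H, ATP5I, ATP5J, ATP5J2 and ATP5L. The electron carriers CYC1 (0.10) and UQCRFS1 (0.11) of complex III were not called. Of 41 members, 26 were higher and 6 lower (edgeR), in a comparison that called 28.7% of all genes (13.1% higher and 15.5% lower). The median log2 fold change of the members was 0.27, against -0.003 over all 11979 genes tested. Complex IV had 10 of 11 members higher and 0 lower, with a median of 0.40 and all 11 above 0, also when library totals alone set the scale. Complex III had 4 of 9 higher and 2 lower (median 0.25), complex V 10 of 15 higher and 3 lower (median 0.24), and complex II 1 of 4 higher and 1 lower (median 0.14).

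COX6C, a small membrane subunit of complex IV (chromosome 8, 99877865 to 99893707), had 913, 858 and 936 CPM in UAU cells and 549, 527 and 543 CPM in control cells, a log2 fold change of 0.75 ± 0.09 (SE; edgeR adjusted p = 3.06e-06). COX7A2, another small membrane subunit of complex IV (chromosome 6, 75237675 to 75250298), had 604, 611 and 567 CPM in UAU and 364, 372 and 373 CPM in control cells, a log2 fold change of 0.70 ± 0.09 (SE; edgeR adjusted p = 6.02e-06). The libraries of the 2 lines were far apart for both genes, with no overlap. ATP5L, the g subunit of complex V (chromosome 11, 118401606 to 118409847), had 3188, 3014 and 3523 CPM in UAU and 2129, 2020.1 and 2394 CPM in control cells, a log2 fold change of 0.58 ± 0.09 (SE; edgeR adjusted p = 4.7e-05). UQCRQ, a small subunit of complex III next to cytochrome b (chromosome 5, 132866642 to 132868847), had 914, 979 and 925 CPM in UAU and 602, 616 and 719 CPM in control cells, a log2 fold change of 0.55 ± 0.09 (SE; edgeR adjusted p = 3.64e-05). No control library reached a UAU one for either.

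In the other direction, ATP5B had 183, 186 and 274 CPM in UAU and 349, 388 and 351 CPM in control cells, a log2 fold change of -0.74 ± 0.12 (SE; edgeR adjusted p = 4.18e-05). ATP5A1, the alpha subunit that alternates with beta in the catalytic ring (chromosome 18, 46080248 to 46104227), had 31.8, 34.8 and 49.3 CPM in UAU and 66.9, 66.3 and 52.2 CPM in control cells, a log2 fold change of -0.67 ± 0.13 (SE; edgeR adjusted p = 0.000414). UAU library C lay above A and B for both genes but below every control library. UQCRC2, a core protein of complex III (chromosome 16, 21953361 to 21983660), had 19.2, 19.9 and 26.2 CPM in UAU and 35.2, 32.6 and 33.9 CPM in control cells, a log2 fold change of -0.62 ± 0.12 (SE; edgeR adjusted p = 0.000365). Its partner core protein UQCRC1 (chromosome 3, 48599002 to 48609646) had 44.5, 43.3 and 65.3 CPM in UAU and 71.6, 81.8 and 77.6 CPM in control cells, a log2 fold change of -0.57 ± 0.12 (SE; edgeR adjusted p = 0.000801). UAU library C was again the highest of its group. SDHA, the flavoprotein of complex II (chromosome 5, 218320 to 268746), had 14.2, 13.1 and 17.4 CPM in UAU and 25.5, 20.3 and 19.8 CPM in control cells, a log2 fold change of -0.54 ± 0.14 (SE; edgeR adjusted p = 0.0044). SDHC rose in the same fraction (0.44 ± 0.10, SE; edgeR adjusted p = 0.0012), while SDHB and SDHD did not pass (0.09 and 0.20). Without any 1 library of the pair compared, 27 to 35 members were called.

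**Figure D2:**
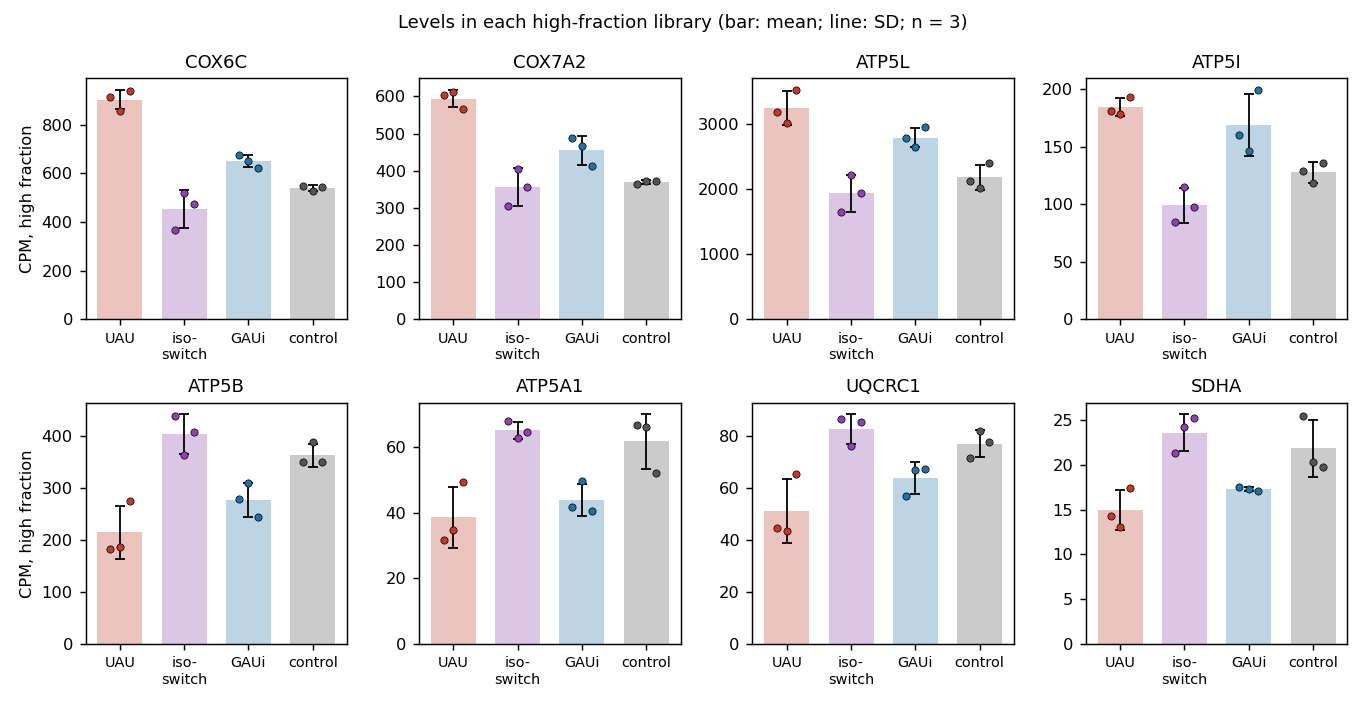
Level in CPM in each of the 12 high-fraction libraries for 8 members, with points for libraries, bars for means and lines for SD (n = 3 libraries per derivative). In the upper row UAU libraries stand highest (COX6C 858 to 936 CPM, against 527 to 549 CPM in control), except that GAUi library C was the highest for ATP5I, and in the lower row UAU means are the lowest and isoswitch means the highest.

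The start of transcription is shown for members that moved in either direction, because mRNAs that begin with a run of pyrimidines form a class whose translation is known to be regulated together. RefSeq promoter entries (GRCh38.p14) were matched for 33 of the 41 members. In 8 of these 33 genes (24.2%), against 6.5% of the 27305 genes with an entry, the first 5 transcribed bases are all C or T. These were UQCRH, COX4I1, COX7A2L, COX7C, ATP5E, ATP5G2, ATP5L and ATP5O. A gene counted if any of its entries began so, and ATP5G2 has 3 entries and COX7A2L 2. In UAU cells 5 of the 8 were higher and 0 lower in the high fraction, against 20 higher and 5 lower of all 33. The count of higher ones in UAU cells thus lies near the share of the members as a whole. In isoswitch against GAUi cells 0 of the 8 were higher and 6 lower, against 4 higher and 18 lower of all 33. The members printed were picked, so they do not show how common the run is among those that rose or fell. Each line below runs 5′ to 3′ from 10 bases before the start to 20 bases from it, with the pyrimidine run at the start in capitals.
ATP5L (chr11:118401596-118401625, + strand): tgcagcgggtCCTTCCggcgggtgacattc
COX7C (chr5:86617931-86617960, + strand): tcccatctttCTTTTCagtccttgcgcacc
ATP5E (chr20:59032316-59032345, - strand): gtggtctgatCTTCCTgcggctgaaccgcc
UQCRH (chr1:46303688-46303717, + strand): cttacaagtcCTTCTTgatcctgaactggg
UQCRQ (chr5:132866632-132866661, + strand): cggaaatgacgaacgagtcaaccggatcgg
ATP5I (chr4:674257-674286, - strand): tctgcaggttgtgcttccggtgcggaggtc
UQCRC1 (chr3:48609627-48609656, - strand): cttgcgcggcgcaacagggccgactgcagc
UQCRC2 (chr16:21953351-21953380, + strand): aactcccggcCTCCgccaccatcttgcttt
SDHA (chr5:218310-218339, + strand): cagtctgcgcagggactggcgggactgcgc
ATP5A1 (chr18:46104208-46104237, - strand): aggctctggcattgcaagcctcgcttcgtt
ATP5L, COX7C and ATP5E, which rose in UAU cells, and UQCRH, which was not called there, start with a run of 6 pyrimidines, whereas UQCRQ and ATP5I, which also rose, have none. Of those that fell, UQCRC2 has a run of 4, while UQCRC1, SDHA and ATP5A1 at the entry shown have none.

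Many respiratory genes are transcribed under NRF1 and the ETS factor GABPA, and their sequence motifs were counted in the same windows of 250 bases before to 50 bases after the start, on both strands. Here too a gene counted if any of its entries held the motif. GCATGCGC, an NRF1 core motif that overlaps its own reverse complement GCGCATGC, was in 9 of 33 members (27.3%), against 3.68% of all genes with an entry. CCGGAAGT, an ETS motif, was in 9 of 33 (27.3%), against 4.95%. AAGATGGC, a YY1 motif, was in 5 of 33 (15.2%), against 3.52%. The NRF1 motif was in SDHB, SDHD, CYCS, COX5B, COX6A1, ATP5C1, ATP5G2, ATP5I and ATP5J, and the ETS motif in SDHD, UQCRH, UQCRQ, UQCR11, COX5B, COX8A, ATP5A1, ATP5H and ATP5J. In the high fraction of UAU cells, 5 of the 9 with the NRF1 motif were higher and 0 lower, 6 of the 9 with the ETS motif were higher and 1 lower, and 1 of the 5 with the YY1 motif was higher and 2 lower. Of all 33 members with an entry 20 were higher and 5 lower, so the NRF1 and ETS counts in UAU cells lie near the share of the members as a whole. In isoswitch against GAUi cells 0 of the 9 with the NRF1 motif were higher and 4 lower. For the ETS motif 1 of 9 was higher and 5 lower, and for the YY1 motif 1 of 5 was higher and 2 lower. Of all 33, 4 were higher and 18 lower there. Stretches around these motifs are printed for 3 members, with the motifs in capitals.
ATP5I (chr4:674327-674374, - strand): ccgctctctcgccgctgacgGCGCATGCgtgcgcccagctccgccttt
SDHD (chr11:112086743-112086822, + strand): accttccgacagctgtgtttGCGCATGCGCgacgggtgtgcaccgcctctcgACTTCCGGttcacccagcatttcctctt
COX5B (chr2:97645906-97646071, + strand): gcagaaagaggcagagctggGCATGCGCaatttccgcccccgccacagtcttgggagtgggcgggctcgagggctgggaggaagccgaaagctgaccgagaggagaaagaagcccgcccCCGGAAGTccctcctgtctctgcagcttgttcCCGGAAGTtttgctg

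GAU interference alone changed fewer members of the high fraction. Of 41, 8 were higher and 2 lower (edgeR), in a comparison that called 10.1% of all genes (4.66% higher and 5.48% lower), and with library totals alone setting the scale the split was 6 higher and 6 lower. The 8 were UQCRQ, COX7A2, COX7A2L, COX7C, COX8A, ATP5E, ATP5I and ATP5L, and the 2 were ATP5A1 and ATP5B. The median log2 fold change of the members was 0.15, against -0.005 over all genes. ATP5I had 161, 147 and 199 CPM in GAUi and 129, 118 and 136 CPM in control cells, a log2 fold change of 0.41 ± 0.11 (SE; edgeR adjusted p = 0.0139). ATP5E had 1129.5, 955 and 1166 CPM in GAUi and 801, 798 and 868 CPM in control cells, a log2 fold change of 0.40 ± 0.09 (SE; edgeR adjusted p = 0.00436). ATP5L had 2779.7, 2645 and 2947 CPM in GAUi and 2129, 2020.1 and 2394 CPM in control cells, a log2 fold change of 0.36 ± 0.09 (SE; edgeR adjusted p = 0.0127). For these 3 the GAUi libraries lay above all control libraries. UQCRQ had 858, 718 and 873 CPM in GAUi and 602, 616 and 719 CPM in control cells, which overlap, a log2 fold change of 0.34 ± 0.09 (SE; edgeR adjusted p = 0.0107). ATP5A1 had 41.8, 49.6 and 40.4 CPM in GAUi and 66.9, 66.3 and 52.2 CPM in control cells (-0.49 ± 0.13, SE; edgeR adjusted p = 0.0139). ATP5B had 278, 309 and 243 CPM in GAUi and 349, 388 and 351 CPM in control cells (-0.38 ± 0.11, SE; edgeR adjusted p = 0.0311). No GAUi library of either reached a control one. These calls rest on few libraries: 2 members were called without control A, 3 without control B, 3 without GAUi A and 4 without GAUi C, and 19 in a fit of the GAUi and control libraries alone. Of the 6 members named, ATP5E passed without each of these 4 libraries in turn.

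Isoswitch cells, with both tRNA changes, had 0 members higher and 7 lower than control in the high fraction (edgeR), in a comparison that called 11% of all genes (3.67% higher and 7.36% lower). The 7 were UQCRH, UQCRQ, UQCR11, CYCS, ATP5E, ATP5I and ATP5J2, and 15 members had an unadjusted p under 0.05. The median of the members was -0.06, against -0.005 over all genes. UQCRH had 145, 216 and 202 CPM in isoswitch and 288, 256 and 303 CPM in control cells, a log2 fold change of -0.60 ± 0.11 (SE; edgeR adjusted p = 0.000586). CYCS had 524, 611 and 569 CPM in isoswitch and 867, 724 and 959 CPM in control cells, a log2 fold change of -0.59 ± 0.09 (SE; edgeR adjusted p = 9.54e-05). Both fell below all control libraries, and isoswitch library A was the lowest of its group. ATP5J2, the f subunit of complex V (chromosome 7, 99458195 to 99466167), had 119, 126 and 113 CPM in isoswitch and 167, 167 and 188 CPM in control cells, a log2 fold change of -0.55 ± 0.08 (SE; edgeR adjusted p = 5.38e-05). UQCR11 had 174, 191 and 176 CPM in isoswitch and 229, 235 and 249 CPM in control cells, a log2 fold change of -0.40 ± 0.09 (SE; edgeR adjusted p = 0.00261). No isoswitch library of either reached a control one. Members called numbered 4 without control A, control C, isoswitch A or isoswitch C, and 14 without isoswitch B. DESeq2 called 0 higher and 6 lower, and the RLE and library-total scalings each called 1 higher and 6 lower.

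Isoswitch was then set against GAUi, which shows the UAU tRNA added where GAU interference was already present. ATP5A1, ATP5B, SDHA, UQCRC1 and UQCRC2 were higher, and the members that fell included 7 of complex IV, 8 of complex V, 5 of complex III, CYCS and ATPIF1. Of 41 members, 5 were higher and 22 lower (edgeR), in a comparison that called 15.8% of all genes (6.58% higher and 9.26% lower). With library totals alone the split was 6 higher and 15 lower, and that scaling moved the median of all genes to 0.10. The median of the members was -0.24, against 0.003 over all genes. Complex IV had 0 of 11 higher and 7 lower (median -0.32), with all 11 below 0 under both scalings. Complex III had 2 of 9 higher and 5 lower, complex V 2 of 15 higher and 8 lower, and complex II 1 of 4 higher and 0 lower.

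ATP5A1 had 68.1, 62.8 and 64.7 CPM in isoswitch and 41.8, 49.6 and 40.4 CPM in GAUi cells, a log2 fold change of 0.56 ± 0.13 (SE; edgeR adjusted p = 0.00416). ATP5B had 439, 362 and 408 CPM in isoswitch and 278, 309 and 243 CPM in GAUi cells, a log2 fold change of 0.53 ± 0.11 (SE; edgeR adjusted p = 0.00246). All isoswitch libraries of both genes stood above all GAUi libraries. SDHA had 21.3, 24.3 and 25.2 CPM in isoswitch and 17.5, 17.3 and 17.1 CPM in GAUi cells (0.43 ± 0.14, SE; edgeR adjusted p = 0.0305). UQCRC1 had 86.4, 76.0 and 85.4 CPM in isoswitch and 56.7, 67.0 and 67.4 CPM in GAUi cells (0.36 ± 0.12, SE; edgeR adjusted p = 0.0351). The groups do not overlap for either, but SDHA did not pass without GAUi A, B or C or isoswitch B or C, nor UQCRC1 without GAUi A or C or isoswitch A or C.

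ATP5I had 84.4, 115 and 97.7 CPM in isoswitch and 161, 147 and 199 CPM in GAUi cells, a log2 fold change of -0.78 ± 0.11 (SE; edgeR adjusted p = 3.23e-05). UQCRH had 145, 216 and 202 CPM in isoswitch and 318, 292 and 325 CPM in GAUi cells, a log2 fold change of -0.74 ± 0.11 (SE; edgeR adjusted p = 7.03e-05). ATP5E had 599, 740.2 and 681 CPM in isoswitch and 1129.5, 955 and 1166 CPM in GAUi cells, a log2 fold change of -0.70 ± 0.09 (SE; edgeR adjusted p = 1.85e-05). In each of these 3, all of them lower in the high than in the low fraction of control cells, the GAUi libraries lay above every isoswitch library. UQCR11 had 174, 191 and 176 CPM in isoswitch and 295, 241 and 304 CPM in GAUi cells, a log2 fold change of -0.65 ± 0.09 (SE; edgeR adjusted p = 2.71e-05), again with no overlap.

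**Figure D3:**
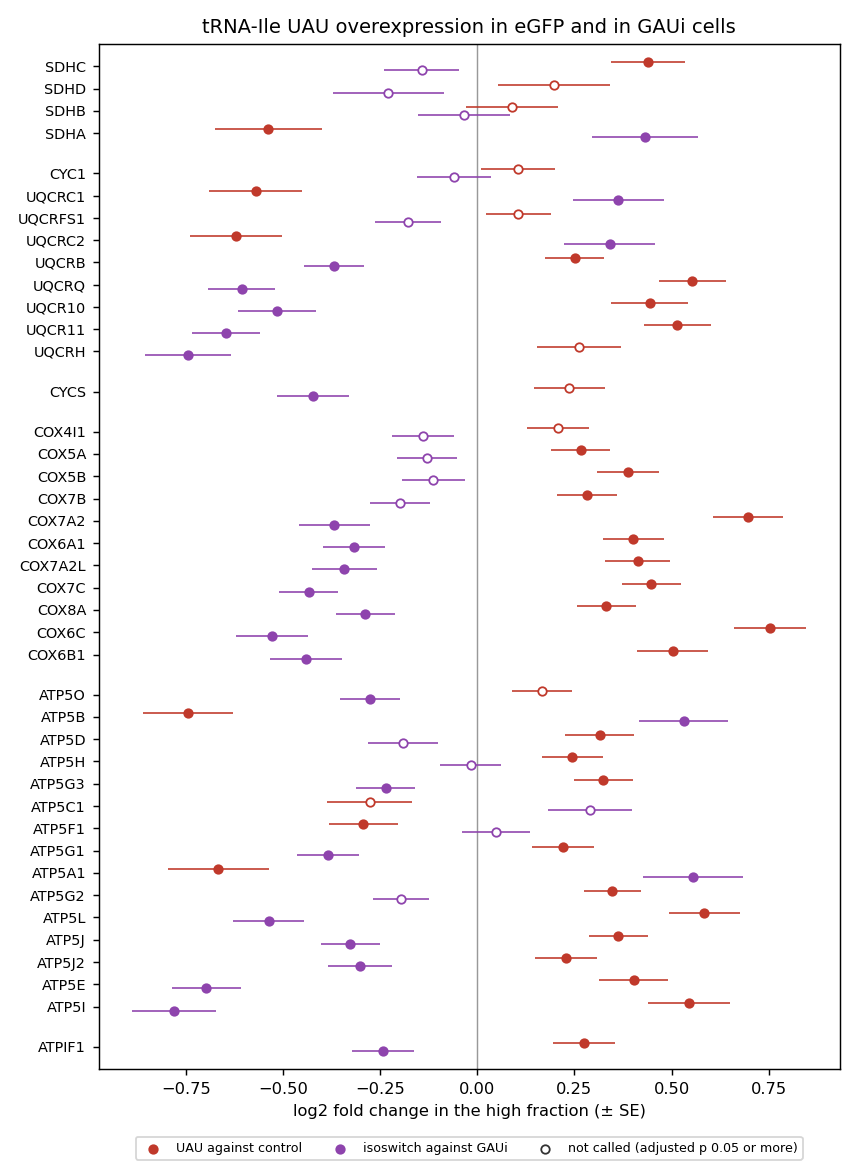
Log2 fold change (± SE) in the high fraction for the UAU tRNA in eGFP interference cells (UAU against control) and in GAU interference cells (isoswitch against GAUi), per member and ordered as in the plot of control fractions, with filled points for members called. The 2 sets of points lie on opposite sides of 0 for every member, as with COX6C at 0.75 and -0.53 and ATP5B at -0.74 and 0.53. Their sizes need not match: CYCS has 0.24, not called, and -0.42.

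The effect of the UAU tRNA with GAU interference minus its effect without it, an interaction, was called for 36 of 41 members, 7 higher and 29 lower (edgeR), in a test that called 35.7% of all genes (18.1% higher and 17.6% lower). The median of the members was -0.54, against -0.01 over all genes. All 11 subunits of complex IV were lower. ATP5B (1.27 ± 0.16, SE; edgeR adjusted p = 1.55e-06), ATP5A1 (1.22 ± 0.18, SE; edgeR adjusted p = 1.11e-05), SDHA (0.97 ± 0.19, SE; edgeR adjusted p = 0.000303) and UQCRC2 (0.96 ± 0.17, SE; edgeR adjusted p = 6.73e-05) had the highest interaction log2 values. ATP5I (-1.32 ± 0.15, SE; edgeR adjusted p = 4.12e-07), COX6C (-1.28 ± 0.13, SE; edgeR adjusted p = 1.18e-07), UQCR11 (-1.16 ± 0.12, SE; edgeR adjusted p = 1.56e-07) and UQCRQ (-1.16 ± 0.12, SE; edgeR adjusted p = 1.43e-07) had the lowest. UQCRC1, ATP5C1 and ATP5F1 were the other members with a higher value. The count was 34 to 38 without any 1 library, and library totals alone gave 34, although they moved the median of all genes to 0.17.

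UAU against control and isoswitch against GAUi share no library, so their calls can be set side by side. The sign was opposite in 41 of 41 members, against 70.2% of all genes tested, and in 38 of 41 members with library totals alone. Of the 26 members higher in UAU cells, 19 (73.1%) were lower in isoswitch than in GAUi cells, which is 86.4% of the 22 lower ones. Of the 6 lower in UAU cells, 5 were higher in isoswitch than in GAUi cells, which is all 5 of the higher ones. Across the 41 members Spearman's rho between the 2 sets of log2 fold changes was -0.77, and over all genes -0.49. These are across genes, which are not independent and share library, length and abundance.

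**Figure D4:**
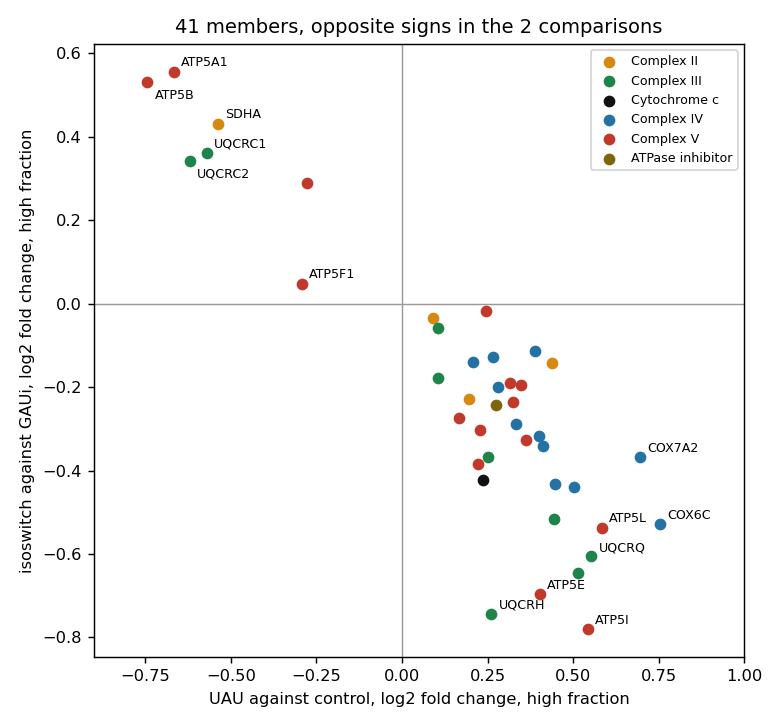
Log2 fold change of each of the 41 members in isoswitch against GAUi (vertical) over that in UAU against control (horizontal), both in the high fraction, coloured by complex. All points lie at the upper left or the lower right of the 0 lines, with ATP5B, ATP5A1, UQCRC1, UQCRC2 and SDHA at the upper left.

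The place of each mRNA in the gradient was set beside its change. Across the 41 members, the isoswitch against GAUi log2 fold change had a Spearman rho of 0.69 with the log2 ratio of high to low fraction in control cells, against 0.24 over 11844 genes. The UAU against control log2 fold change had a rho of -0.43 with the same ratio in GAUi cells, against -0.15 over 11843 genes. Within each of these, the compared libraries are separate from those of the ratio, but the genes share their length and abundance. The number of members above 0 on the log2 ratio of mean high to mean low CPM was 32 of 41 in UAU cells, 25 in isoswitch cells, 29 in GAUi cells and 28 in control cells, with medians of 0.91, 0.44, 0.79 and 0.54. Of all genes, 5750 of 12266 were above 0 in UAU cells and 6110 of 12262 in isoswitch cells. In GAUi cells 5897 of 12265 were, and in control cells 6227 of 12264. Complex IV had 11 of 11 above 0 in UAU, 5 in isoswitch, 8 in GAUi and 6 in control cells. In UAU cells COX8A (0.0002) and COX6B1 (0.013) were barely above 0.

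In total RNA few of the same mRNAs were called. UAU cells had 0 of 41 members called against control (edgeR), where the test called 0.914% of all genes (0.348% higher and 0.566% lower), with 5 members at an unadjusted p under 0.05. DESeq2 also called 0, and a fit of the UAU and control libraries alone called 1 higher and 3 lower. The smallest p belonged to ATP5L, with 1495, 1504 and 1313 CPM in UAU and 1701, 1748 and 1764 CPM in control total RNA (-0.25 ± 0.07, SE; edgeR adjusted p = 0.108). ATP5I followed, with 153, 155 and 141 CPM in UAU and 181, 195 and 192 CPM in control total RNA (-0.32 ± 0.10, SE; edgeR adjusted p = 0.135). Both point down in total RNA while both rose in the high fraction.

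Cytochrome c was the member that differed in total RNA of both lines with GAU interference. CYCS had 247, 238 and 238 CPM in isoswitch and 351, 329 and 335 CPM in control total RNA, a log2 fold change of -0.50 ± 0.07 (SE; edgeR adjusted p = 0.000533). In GAUi total RNA it had 277, 265 and 256 CPM, a log2 fold change of -0.37 ± 0.07 (SE; edgeR adjusted p = 0.00401). Every library of both lines lay below every control library, and the UAU libraries, at 354, 316 and 345 CPM, overlapped control (0.02, edgeR adjusted p = 0.947). CYCS was the 1 member of 41 called in isoswitch total RNA, where the test called 4.05% of all genes (1.29% higher and 2.76% lower), and a fit of isoswitch and control libraries alone called 3 higher and 4 lower. In GAUi total RNA, where the test called 10.1% of all genes (4.38% higher and 5.72% lower), 1 member was higher and 1 lower. The higher one was COX7C, a small complex IV subunit (chromosome 5, 86617941 to 86620962), with 641, 667 and 554 CPM in GAUi and 474, 479 and 499 CPM in control total RNA (0.34 ± 0.08, SE; edgeR adjusted p = 0.0081). The GAUi count was 5 without GAUi A, 4 without GAUi B, 7 without GAUi C and 0 in a fit of GAUi and control libraries alone.

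In the low fraction, UAU cells had 0 of 41 members called (edgeR), where the test called 0.691% of all genes (0.329% higher and 0.362% lower), with 12 members at an unadjusted p under 0.05. DESeq2 called 0 higher and 3 lower. The smallest p belonged to ATP5J2, with 198, 187 and 157 CPM in UAU and 258, 232 and 231 CPM in control (-0.41 ± 0.10, SE; edgeR adjusted p = 0.0624). UQCRB, a small complex III subunit (chromosome 8, 96222947 to 96235545), had 665, 704 and 656 CPM in UAU and 811, 938 and 826 CPM in control (-0.35 ± 0.09, SE; edgeR adjusted p = 0.0692). Without control B, or without UAU A, 2 members were called. In GAUi cells, where the test called 3.4% of all genes (1.27% higher and 2.13% lower), 0 members were higher and 3 lower. ATP5J2 had 143, 153 and 157 CPM in GAUi cells, below the control values just given (-0.67 ± 0.10, SE; edgeR adjusted p = 0.000862). CYCS had 215, 241 and 242 CPM in GAUi and 305, 339 and 332 CPM in control (-0.49 ± 0.11, SE; edgeR adjusted p = 0.0167). COX7B, a complex IV subunit (chromosome X, 77899468 to 77907376), had 186, 198 and 159 CPM in GAUi and 282, 233 and 241 CPM in control (-0.48 ± 0.12, SE; edgeR adjusted p = 0.0273). No GAUi library of these 3 reached a control one. The count was 1 without control C or without GAUi A, B or C. In isoswitch cells, where the test called 2.58% of all genes (0.964% higher and 1.62% lower), ATP5J2 was the 1 member called, lower at 158, 165 and 179.8 CPM (-0.52 ± 0.10, SE; edgeR adjusted p = 0.00577). The count was 0 without isoswitch A and 3 without control B.

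The high-to-total ratio, which takes the log2 difference of the high fraction over total RNA in 1 line and subtracts the same difference in control cells, asks whether the high fraction changed by more or less than total RNA did. In UAU cells 16 members had a higher ratio and 2 a lower one (edgeR), in a test that called 7.32% of all genes (3.57% higher and 3.75% lower). The median of the members was 0.28, against 0.01 over all genes. The split was 14 higher and 4 lower with no filter on low counts, and 7 and 7 with library totals alone, which moved the median of all genes to -0.12. ATP5I (0.89 ± 0.15, SE; edgeR adjusted p = 0.000606), COX6C (0.88 ± 0.13, SE; edgeR adjusted p = 8.61e-05), ATP5L (0.86 ± 0.13, SE; edgeR adjusted p = 8.2e-05) and COX7A2 (0.72 ± 0.12, SE; edgeR adjusted p = 0.000409) had the highest ratio changes. COX6C had 577, 619 and 577 CPM in UAU and 657, 627 and 641 CPM in control total RNA, where it was not called. Every UAU library lay below every control one there, as for 11 of 41 members and 15.4% of all genes. In the high fraction every UAU library of COX6C lay above, as for 29 members and 18.1% of all genes. UQCRC2 (-0.63 ± 0.15, SE; edgeR adjusted p = 0.0091) and ATP5B (-0.63 ± 0.17, SE; edgeR adjusted p = 0.0201) had the lower ratio changes. ATP5B did not pass without UAU total C, control high B, UAU high A or UAU high B. The count of 18 became 11 without control high A or UAU high A. In GAUi cells 0 of 41 members were called, in a test that called 0.718% of all genes (0.223% higher and 0.494% lower), with 10 members at an unadjusted p under 0.05 and 0 higher and 1 lower by DESeq2. The smallest p were those of ATP5A1 (-0.63 ± 0.16, SE; edgeR adjusted p = 0.0512) and UQCRC2 (-0.54 ± 0.15, SE; edgeR adjusted p = 0.0691). In isoswitch cells 0 of 41 were called, in a test that called 0% of all genes (0% higher and 0% lower) and in which 648 genes had an unadjusted p under 0.05, with 8 members at an unadjusted p under 0.05 and 0 by DESeq2. The smallest p were those of UQCRH (-0.55 ± 0.15, SE; edgeR adjusted p = 0.54) and UQCR11 (-0.39 ± 0.12, SE; edgeR adjusted p = 0.69).

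Summed over the 41 members, the high fraction held 19100.4 to 19636 CPM in UAU cells, 13245 to 14689 CPM in isoswitch cells, 16721 to 18009 CPM in GAUi cells and 14856 to 15983 CPM in control cells. UAU and GAUi libraries stood above all control libraries and isoswitch libraries below them. In total RNA the sums were 11944 to 12058 CPM in UAU, 12371 to 12797 CPM in isoswitch, 12895 to 13884 CPM in GAUi and 12368 to 12929 CPM in control cells. In the low fraction they were 13978 to 14339.9, 15251 to 17382, 13575 to 15492 and 14587 to 16610.0 CPM for UAU, isoswitch, GAUi and control cells. In the low fraction the UAU libraries lay below every control library and the other groups overlapped control. A list of 16 non-coding RNAs, of which 15 were lower and 1 higher in the high than in the low fraction of control cells, was summed as well. Together they had 1564 to 1954 CPM in the high fraction of UAU, 1049 to 1292 CPM of isoswitch, 1517 to 1684 CPM of GAUi and 1485 to 1558 CPM of control cells. The UAU libraries lay above every control library, C only just, and the isoswitch libraries below, as with the members. GAUi libraries overlapped control, unlike for the members. In control low fractions they had 10825 to 12135 CPM. The 1 that was higher was TUG1 (0.48 ± 0.09, SE; edgeR adjusted p = 0.000136), named after its value was seen. In the high fraction 6 of the 16 were higher and 1 lower in UAU against control, and 0 higher and 13 lower in isoswitch against GAUi. The list was set up to follow carry-over of light material into the high fraction. Whether such carry-over had a part in the results on the high fraction was not tested. Summed luminal markers (10 genes, with ESR1, PGR, FOXA1 and CDH1 under 1 CPM) moved too, at 236 to 337 CPM in the high fraction of UAU, 433 to 496 CPM of isoswitch, 335 to 365 CPM of GAUi and 390.5 to 418 CPM of control cells. The 10 MDA-MB-231 markers summed to 5454 to 5703 CPM in the high fraction of UAU, 4221 to 4668 CPM of isoswitch, 3896 to 4037 CPM of GAUi and 5145 to 5504 CPM of control cells, with isoswitch and GAUi libraries below every control library. The 9 of them tested did not move together. In isoswitch against control 5 lay above 0 and 4 below (median 0.07, from -1.77 to 0.43). In GAUi against control 3 lay above 0 and 6 below (median -0.19, from -1.42 to 0.17). The part of either marker list in the results was not tested.

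**Figure D5:**
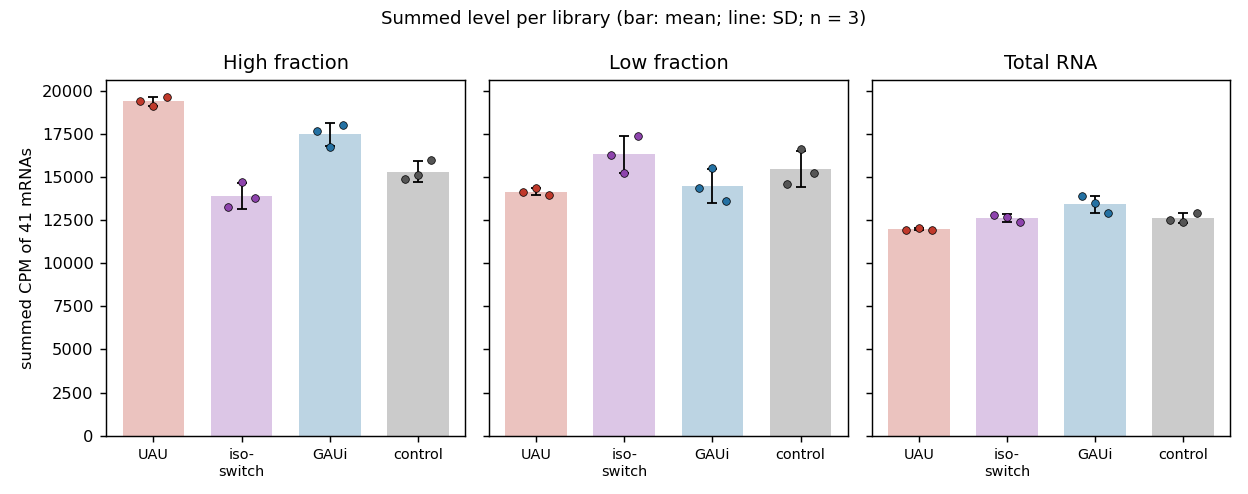
Summed CPM of the 41 members in each library, by fraction, with points for libraries, bars for means and lines for SD (n = 3). In the high fraction UAU libraries (19100.4 to 19635.5 CPM) stand above all others and isoswitch libraries (13245 to 14689 CPM) below all others, and in total RNA the range is 11944 to 13884 CPM.

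Other genes of the same pathway were read from lists. Their counts stand against 13.1% of all genes higher and 15.5% lower in the high fraction of UAU against control cells, 6.58% and 9.26% in isoswitch against GAUi, and 32.8% and 33.2% between the control fractions. Of 12 further subunits, isoforms and gene copies, 6 had enough counts to be tested. In the high fraction of UAU cells 4 of the 6 were higher and 0 lower (median 0.38), among them C14orf2 (0.54 ± 0.09, SE; edgeR adjusted p = 7.09e-05), a small complex V subunit, NDUFA4 (0.53 ± 0.09, SE; edgeR adjusted p = 8.4e-05), now counted as a subunit of complex IV, and USMG5 (0.40 ± 0.09, SE; edgeR adjusted p = 0.00116), also of complex V. In isoswitch against GAUi 0 were higher and 3 lower, C14orf2, USMG5 and ATP5L2, the last a copy that shares sequence with the member ATP5L. Of 39 assembly factors tested, 15 were higher and 2 lower in UAU against control (median 0.25), and 0 higher and 17 lower in isoswitch against GAUi (median -0.28). Examples were PET100, a complex IV assembly factor (0.85 ± 0.11 in UAU, SE; edgeR adjusted p = 3.54e-06), and COX17, the copper chaperone of complex IV (-0.94 ± 0.13 in isoswitch against GAUi, SE; edgeR adjusted p = 3.56e-05). In control cells 13 of the 39 were higher and 20 lower in the high than in the low fraction, COX17 among the lower ones at -2.19 ± 0.09 (SE; edgeR adjusted p = 3.58e-11).

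Of 8 carriers and porins of the mitochondrial membranes, 2 were higher and 4 lower in the high fraction of UAU cells (median -0.26). The phosphate carrier SLC25A3 (-0.44 ± 0.10, SE; edgeR adjusted p = 0.00138), the porin VDAC1 (-0.43 ± 0.10, SE; edgeR adjusted p = 0.0018) and the ADP/ATP carrier SLC25A6 (-0.42 ± 0.11, SE; edgeR adjusted p = 0.00429) fell. In isoswitch against GAUi 1 was higher, VDAC1 (0.39 ± 0.10, SE; edgeR adjusted p = 0.00752), and 0 lower. These counts and those that follow, of lists of 8 and 11 genes, are read against the same shares of all genes, 13.1% higher and 15.5% lower for UAU and 6.58% and 9.26% for isoswitch against GAUi. Of 11 regulators of respiratory gene transcription, 1 was higher and 2 lower in the high fraction of UAU cells, near those shares. ESRRA (0.27 ± 0.08, SE; edgeR adjusted p = 0.0141) rose, and TFAM (-0.32 ± 0.09, SE; edgeR adjusted p = 0.00679), which packages mitochondrial DNA and helps start its transcription, and NRF1 (-0.53 ± 0.18, SE; edgeR adjusted p = 0.0304) fell. In isoswitch against GAUi 1 was higher, GABPA (0.65 ± 0.22, SE; edgeR adjusted p = 0.0443), and 0 lower. GABPA overlaps the member ATP5J, so its reads are uncertain.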

How the data were processed

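RNA from total lysate and from 2 pooled gradient fractions of 4 MDA-MB-231 derivatives was sequenced from its 3′ ends, with 500 ng of RNA per library per the labels. The deposited files hold whole-number counts per gene symbol. Per the submitters' processing notes, STAR, featureCounts, DESeq2 and hg38 were used. Which step each served, and with which version and settings, is not given in the sources used here. Libraries total 6679340 to 8973050 counts for total RNA, 5310594 to 8234332 for the low and 5192464 to 8974001 for the high fraction, so counting error matters most for the members with the fewest counts. From the counts, edgeR 4.0.16 (R 4.3.3) quasi-likelihood tests were fitted on all genes that passed filterByExpr, with TMM scaling, and p-values were adjusted by Benjamini-Hochberg over all genes of a fit. A member is called where its adjusted p is under 0.05, whatever its fold, and an SE is the absolute log2 fold change over the square root of F. Fits used the 9 control libraries for the fractions, the 12 libraries of a fraction for the lines, and 24 libraries for the high-to-total ratio. CPM were scaled over all 36 libraries. Ranges of 3 and 3 libraries without overlap in 1 direction were seen in 7.75% to 34.5% of all genes tested, depending on the comparison and direction. Groups came from the titles and characteristics. Alternatives were DESeq2 1.42.0, RLE scaling, library totals without TMM, no filter, a replicate block, the compared groups only and leaving out each library. On counts simulated for UAU against control in the high fraction (11886 genes, 200 changed), 89% of 1.5-fold and 100% of 2-fold changes were recovered, with 16 false calls of 205. The changed genes were all over 10 CPM, with equal numbers up and down and the spread of the fitted model. These rates therefore test neither the scaling nor the calls in the real libraries, where 28.7% of all genes were called. No 2 replicates looked like 1 library deposited again, since chi-square per degree of freedom between replicates was 1.76 to 22.3. All 41 symbols were matched to RefSeq genes (GRCh38.p14), 25 by current and 16 by older symbol, and coordinates are of that build. Members, lists and tests were chosen with earlier results of these data known. In each comparison at most 4 called members with a higher and 4 with a lower value were named by size of fold change, or the 2 with the smallest p where none was called, and at most 3 called genes of each other list by p. Other members, such as SDHA, CYCS, CYC1 and UQCRFS1, were also named outside that rule, after their values were seen.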

Additional observations from a re-analysis of the deposited data

Results flagged for a closer look

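The effect of the UAU tRNA on the high fraction differed between cells with and without GAU interference for 36 of the 41 members, by a test of the difference itself (edgeR interaction, adjusted p under 0.05), in a test that called 35.7% of all genes. The interaction on the log2 scale was 1.27 for ATP5B, 1.22 for ATP5A1, 0.97 for SDHA and 0.96 for UQCRC2. It was -1.32 for ATP5I, -1.28 for COX6C, -1.16 for UQCR11 and -1.16 for UQCRQ.

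The UAU effect also differed between the high fraction and total RNA for 18 members, 16 higher and 2 lower, by a test of that difference that called 7.32% of all genes. With library totals alone the split was 7 and 7, and without control high A or UAU high A the count was 11. It was 0.89 for ATP5I, 0.88 for COX6C, 0.86 for ATP5L and 0.72 for COX7A2, which were higher in the high fraction relative to total RNA. It was -0.63 for UQCRC2 and -0.63 for ATP5B, which were lower.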

How the results depend on the processing

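None of the 63 log2 fold changes of members named by the rule above changed direction under the alternatives run. Members named outside that rule are not in this count. Of 203 alternative counts of called members for 15 comparisons, 163 stayed within 1.5 times the reported count and 40 did not. This compares the number called and ignores direction. A changed split of higher and lower members can therefore pass as within, as with library totals for the UAU ratio and the GAUi high fraction. Of 856 alternative values for named members, 793 kept their side of the threshold, 43 lost and 20 gained a call. The counts that moved were small or rested on few libraries. With library totals alone, 1 member was called in the UAU low fraction and 3 in the GAUi ratio. With no filter on low counts, 3 were called in the UAU low fraction, 3 in the GAUi ratio and 1 in the isoswitch ratio. DESeq2 called 3 in the UAU low fraction, 5 in the GAUi low fraction and 1 in the GAUi ratio. Fits of the compared groups only called 19 in the GAUi high fraction, and 4, 0 and 7 in total RNA of UAU, GAUi and isoswitch cells. The cause was not tested. With a replicate block, 1 member was called in the GAUi ratio; other counts under the block stayed within 1.5 times (34 for control fractions, 32 for UAU, 9 for GAUi and 6 for isoswitch in the high fraction, 26 for isoswitch against GAUi, 36 for the interaction, 20 for the UAU ratio). The replicate letters showed no steady pairing of the libraries. Same-letter deviations correlated at -0.365 to 0.212 between fractions of a line and -0.512 to 0.346 between lines. Every pair exceeded 0.1 in 0 of 12 and 0 of 18 group pairs, and each library correlated best with its own letter in 2 of 12 and 1 of 18. With 3 libraries per group, this check cannot show whether same-letter libraries came from the same culture.

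Leaving out 1 library at a time gave 33 to 36 members for control fractions, and in the high fraction 27 to 35 for UAU, 2 to 9 for GAUi, 4 to 14 for isoswitch, 18 to 25 for isoswitch against GAUi and 34 to 38 for the interaction. In total RNA it gave 0 for UAU, 2 to 7 for GAUi and 1 for isoswitch, in the low fraction 0 to 2 for UAU, 1 to 3 for GAUi and 0 to 3 for isoswitch, and for the ratio 11 to 22 for UAU, 0 to 4 for GAUi and 0 for isoswitch. Rows that share sequence limit the members as described above.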
